A study of Mus musculus with 6 samples.

Results

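BCL2-family proteins decide whether a cell under stress keeps its mitochondria intact or dies by apoptosis, and 10 genes of the family were followed in testis RNA of mice lacking SEL1L in germ cells. The genes are Bax, Bak1 and Bok (effectors), Bcl2, Bcl2l1, Bcl2l2 and Mcl1 (guardians), and Bcl2l11, Bbc3 and Bid (BH3-only genes). They were taken from a list of names matched to GENCODE mouse M21 symbols and not by a rule on their values, but the list was chosen with earlier results of these data known. They are 10 of the 55536 genes in each count table. All 10 were among the 21465 genes that passed a filter on low counts and were tested. The question was whether their transcripts differ when the ER-associated degradation (ERAD) adaptor SEL1L, which works with the ubiquitin ligase HRD1, is removed from germ cells.

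Whole testes of 3 KOStra8 and 3 HETStra8 male mice were sequenced at 7 weeks of age, with 1 library per mouse. KOStra8 mice carried a floxed and a deleted Sel1L allele plus Stra8-Cre, whose promoter is active in male germ cells. HETStra8 is in the paper a joint name for floxed/wild-type mice with Stra8-Cre and floxed/deleted mice, whereas the deposited record gives floxed/deleted littermates and mentions no Cre, so that the genotype of each control mouse is not known here. By the study's own staining, spermatogonia and Sertoli cells of KOStra8 mice still hold SEL1L. The tissue also contains Leydig, myoid and immune cells, and in such bulk RNA fewer cells of a type and less RNA per cell cannot be told apart. Nothing states which mice shared a litter, and p-values measure the spread between these mice only.

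Guardians hold effectors and BH3-only proteins in check, BH3-only proteins neutralise guardians or activate effectors, and active BAX or BAK opens pores in the outer mitochondrial membrane through which cytochrome c escapes. Cytochrome c then assembles with APAF1 and caspase-9 into the apoptosome, which starts the caspase cascade. The balance matters in the testis, where germ cells are culled throughout life: mice without Bax retain surplus germ cells and are sterile, and mice without Bcl2l2 lose spermatogenesis. BOK differs from the other effectors in that its protein is kept low by ERAD. Gene counts report none of the protein level, and they do not separate splice forms such as the long and short forms of Bcl2l1, Mcl1 and Bcl2l11.

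What ties these genes together is the BH3 domain, the helix by which one family member docks on another. Its coding sequence is shown for all of them because pairing through this helix defines the family. The stretches, of 36 bases each, were read 5′ to 3′ on the coding strand from the transcript with the longest CCDS coding sequence in GENCODE M21 (GRCm38), and capitals mark the codons of the BH3 core. The core was found as leucine or methionine, 3 free residues, glycine or alanine, aspartate, and then aspartate, glutamate or glycine, a pattern present once in each of the 10 proteins and in 6.33% of 20338 genes with a CCDS coding sequence. Only Bcl2l2 needs the methionine, only Bbc3 the alanine and only Mcl1 the last glycine. The pattern is thus wide enough to hold every member, and its presence in all of them is not a result.
Bax: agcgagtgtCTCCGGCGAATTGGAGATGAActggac
Bak1: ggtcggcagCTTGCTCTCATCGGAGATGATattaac
Bok: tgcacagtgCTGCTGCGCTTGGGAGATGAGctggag
Bcl2: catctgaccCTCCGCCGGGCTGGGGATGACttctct
Bcl2l1: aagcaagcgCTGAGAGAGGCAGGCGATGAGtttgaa
Bcl2l2: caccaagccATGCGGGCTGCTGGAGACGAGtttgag
Bcl2l11: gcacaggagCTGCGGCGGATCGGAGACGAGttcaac
Mcl1: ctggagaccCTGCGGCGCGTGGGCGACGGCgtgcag
Bbc3: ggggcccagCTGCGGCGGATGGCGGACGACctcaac
Bid: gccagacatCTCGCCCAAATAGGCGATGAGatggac

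All these stretches are coding exon sequence. The core began at residue 63 of 192 in Bax, 76 of 209 in Bak1 and 71 of 213 in Bok. In the guardians it began at residue 94 of 236 (Bcl2), 90 of 233 (Bcl2l1), 46 of 193 (Bcl2l2) and 194 of 331 (Mcl1). In the BH3-only proteins it lay further along for Bcl2l11 (150 of 196) and Bbc3 (141 of 193) than for Bid (90 of 195). The stretches ranged in GC content from 50% in Bak1 to 77.8% in Mcl1. On GRCm38 the stretch of Bax is chr7:45465997-45466032 on the minus strand, in exon 3 of 6, and that of Bak1 is chr17:27022531-27022566 on the minus strand, in exon 4 of 6. The stretch of Bok is split by an intron between exons 2 and 3 of 5 and extends over chr1:93686648-93689170 on the plus strand. Those of Bcl2l1 (chr2:152829697-152829732, minus strand, exon 2 of 3) and Mcl1 (chr3:95659427-95659462, plus strand, exon 1 of 3) belong to the guardians with the most RNA in these testes. That of Bcl2 (chr1:106712575-106712610, minus strand, exon 1 of 2) belongs to the member with the least. Bcl2l2 holds its stretch at chr14:54884508-54884543 on the plus strand, in exon 3 of 4. The stretches of the BH3-only genes are chr2:128147141-128147176 on the plus strand in exon 3 of 4 for Bcl2l11, chr7:16313764-16313799 on the plus strand in exon 3 of 4 for Bbc3, and chr6:120897289-120897324 on the minus strand in exon 4 of 6 for Bid.

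The libraries held between 28875108 and 36526695 counts, and p-values are those of edgeR's two-sided quasi-likelihood model, adjusted over all tested genes, unless another tool is named. Sel1l itself was lower in every KOStra8 testis (24.2, 22.0 and 20.3 counts scaled to a common library size, CPM) than in every HETStra8 testis (49.2, 47.6 and 42.4 CPM, log2 fold change −1.07, edgeR adjusted p = 0.00061). Across 21457 tested genes with a GC value, fold changes followed GC content (Spearman rho −0.47, genes not being independent replicates), and values corrected for GC content and transcript length are given as well for the members and for most of the other genes named. The correction was fitted per library without regard to genotype, so it also removes any genotype difference that runs with GC content or length. The source of the GC trend was not tested, and neither set of values is taken as the truer one. HETStra8 mouse 3 weighed on the whole comparison: 4 genes (0.0186% of those tested) passed an adjusted p of 0.01 with all mice, and 443 (2.01%) without that mouse. With the study's fold of 2 added, edgeR called 1 gene higher and 1 lower with all mice. The paper reported more genes at these thresholds and does not name the tool behind them. Marker genes of germ cells, Sertoli, Leydig and myoid cells and macrophages were all counted. The summed markers ran from 871.5 to 1056 CPM in HETStra8 and from 724 to 840.5 CPM in KOStra8 testes for Sertoli cells, from 487 to 732 and from 410 to 527 CPM for Leydig cells, from 99.0 to 136 and from 100.3 to 116 CPM for myoid cells, and from 66.6 to 75.5 and from 58.9 to 79.3 CPM for macrophages. Spermatid markers summed to 11270 to 11420 CPM and 10110 to 11710 CPM, and spermatocyte markers to 3411 to 3702 CPM and 3538 to 3696 CPM.

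Guardian transcripts made up most of the members' RNA in the testis. Levels between genes are given as CPM per kilobase of annotated exon, as mean ± SD (n = 3 mice), and on this scale Bcl2l1, which encodes BCL-XL, stood first with 29.1 ± 2.21 in HETStra8 and 24.9 ± 0.760 in KOStra8 testes. Mcl1, whose short-lived protein restrains BAK and BIM, came next with 23.8 ± 1.64 and 22.5 ± 0.749. Bak1 was the most abundant effector, at 7.51 ± 0.949 and 5.50 ± 0.0719, followed by the guardian Bcl2l2 (BCL-W) at 5.31 ± 0.307 and 5.05 ± 0.125. Below these lay a group of Bax, Bok and Bcl2l11, between 1.76 and 2.27 on average in either genotype. Bbc3 and Bid were at 1.44 ± 0.396 and 1.13 ± 0.204 in HETStra8 and at 1.30 ± 0.266 and 0.962 ± 0.0797 in KOStra8 testes. Bcl2, the founding member of the family, was last at 0.0806 ± 0.0467 and 0.0825 ± 0.0678, 14.0-fold below Bid in HETStra8 and 11.7-fold below it in KOStra8 testes.

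**Figure D1:**
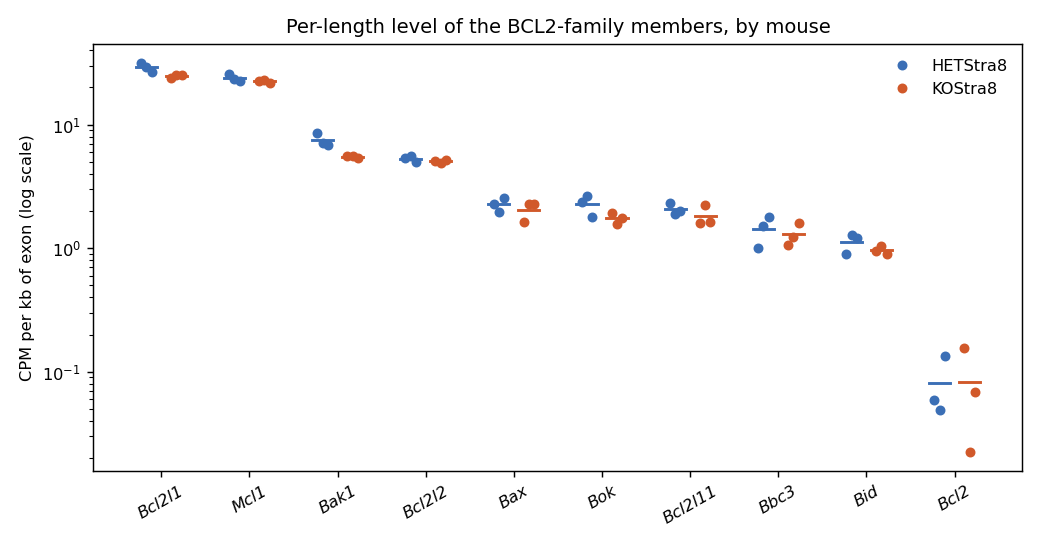
Level of each member in each mouse, in CPM per kilobase of exon on a log axis, with HETStra8 in blue, KOStra8 in orange and a bar at the mean of 3 mice. Bcl2l1 and Mcl1 lie above 20 in all 6 testes, and Bcl2 lies below 0.2 in all of them and spreads most.

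With all exons as length, the order was set beyond the spread between mice at the top and at the bottom. In both genotypes the ranges of Bcl2l1, Mcl1, Bak1, Bcl2l2 and Bax followed each other without overlap, although Bcl2l1 was only 1.22-fold above Mcl1 in HETStra8 and 1.11-fold in KOStra8 testes, and Bak1 1.41-fold and 1.09-fold above Bcl2l2. Bax, Bok and Bcl2l11 overlapped, and their order differed between the genotypes. Bbc3 overlapped with Bid in HETStra8 and with Bok in KOStra8 testes. Bcl2l1 made up 38.1% to 39.2% of the summed per-length level of the members in HETStra8 and 37.1% to 38.4% in KOStra8 testes, and Bcl2 between 0.0336% and 0.242% in the 6 testes. Taking the longest transcript as the length in place of all exons raised Bcl2l1 to 51.9 and 44.4 CPM per kilobase, and Bok to 2.83 and 2.20. With that length Bcl2l2 stood above Bak1 in KOStra8 testes (5.91 against 5.54) and below it in HETStra8 testes (6.21 against 7.57). Levels within the middle group and the order of Bak1 and Bcl2l2 thus depend on the length used.

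No member passed the study's adjusted p of 0.01 in KOStra8 against HETStra8 testes in edgeR's quasi-likelihood test, in DESeq2 or in limma-voom, nor in any of the 15 alternative fits. DESeq2 gave no adjusted p for Bax, Bok, Bcl2, Bbc3 and Bid, so these could not pass there. Bcl2 was also absent from the fit on genes with at least 10 counts in every sample. Of all tested genes, edgeR called 0.00466% lower and 0.014% higher at an adjusted p of 0.01. An adjusted p of 0.05 called 0.0233% of them and again 0 members. At an unadjusted p below 0.05, 2 of the 10 members were lower (Bak1 and Bcl2l1) and 0 were higher, against 5.12% and 7.13% of all tested genes. The log2 fold change was below 0 for 9 of the 10 members and above it for 1, against 51.5% and 48.5% of all tested genes. The median over the members was −0.17 against −0.0094 over all tested genes. With the correction for GC content and length their median was −0.084, and 8 members were below 0 and 2 above it, against 50.5% and 49.5% of all tested genes. With it 1 member, Bak1, was lower at an unadjusted p below 0.05 and 0 were higher, against 3.15% and 3.75% of all tested genes. The 95% interval of the fold change excluded a 2-fold difference in either direction for 9 members, all but Bcl2. For 8 members the interval included a fold change of 1.

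**Figure D2:**
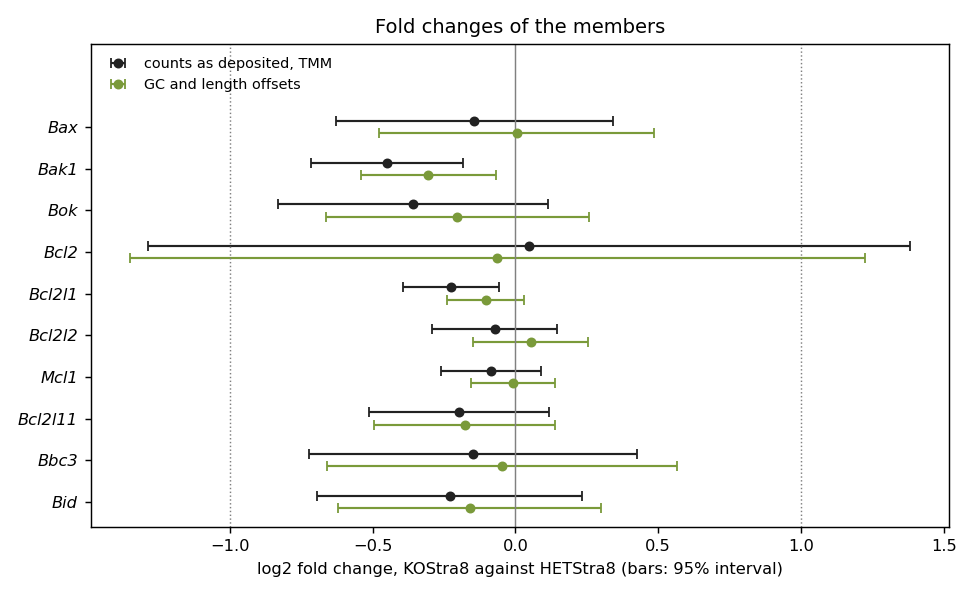
Log2 fold change of each member in KOStra8 against HETStra8 testes with its 95% interval, from the counts as deposited (black) and with offsets for GC content and transcript length (green), and dotted lines at a 2-fold difference. Only the black intervals of Bak1 and Bcl2l1 and the green interval of Bak1 lie wholly below 0, and both intervals of Bcl2 reach past the dotted lines.

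Bak1 had the largest difference among the members. Bak1 (ENSMUSG00000057789, chromosome 17 from 27019810 to 27029009) encodes an effector that sits in the outer mitochondrial membrane of healthy cells. In the order of mouse number it had 650, 580 and 545 counts in HETStra8 and 466, 386 and 476 counts in KOStra8 testes. After scaling these were 20.7, 17.2 and 16.3 CPM against 13.3, 13.3 and 13.0 CPM, or 18.1 ± 2.28 and 13.2 ± 0.173 CPM (mean ± SD, n = 3). Every KOStra8 testis was below every HETStra8 testis, and HETStra8 mouse 1 was the highest. The KOStra8 values lay closer together than counting error alone gives, so their SD understates the uncertainty of the KOStra8 level. Groups without overlap were found with KOStra8 lower for 2 of the 10 members and 8.43% of all tested genes, and with KOStra8 higher for 0 members and 9.33%. For the 2 members the two-sided exact permutation test gives p = 0.1, the smallest that 3 mice against 3 allow. The log2 fold change of Bak1 was −0.45 (SE 0.124, 95% interval −0.72 to −0.18), so that the fitted KOStra8 level was 73.2% of the HETStra8 level with an interval from 60.9% to 88.0%. The difference was below an unadjusted p of 0.05 but did not pass the adjusted one (edgeR adjusted p = 0.193). DESeq2 gave Bak1 an adjusted p of 0.04999, in a fit that called 1.08% of all genes with an adjusted p and 0.0899% lower. Without HETStra8 mouse 3, where 2.01% of all genes were called, edgeR gave Bak1 an adjusted p of 0.0363.

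The transcripts of Bak1 have a GC content of 57.3%, and the correction for GC content and length brought its log2 fold change to −0.31 (95% interval −0.54 to −0.069, edgeR adjusted p = 0.612). Leaving out any 1 mouse kept it between −0.51 and −0.34. Most marker genes of somatic cells also had log2 fold changes below 0. Of all tested genes 51.5% were below 0 and 5.12% lower at an unadjusted p below 0.05, and 50.5% and 3.15% with the correction. All 8 Sertoli genes had log2 fold changes below 0 (median −0.21), 3 of them at an unadjusted p below 0.05, and with the correction 6 were below 0 and 1 was at that p. All 6 Leydig genes were below 0 with and without the correction (medians −0.26 and −0.29), 1 of them at that p in either case. Of 6 macrophage genes 5 were below 0 with and without it (medians −0.18 and −0.23), with 2 at that p before the correction and 0 after. The 4 myoid and 3 tested blood genes were all below 0 as well, and with the correction 2 of the 4 myoid genes and all 3 blood genes were. Of the 4 endothelial genes 2 were below 0 and 2 above it, with and without the correction. Among germ cell markers, 5 of 7 spermatogonial and 6 of 8 spermatocyte genes were above 0, and 5 of 8 spermatid genes below it. With the correction, 4 of 7, 4 of 8 and 6 of 8 of these were above 0. None of these marker genes was called by edgeR, and the part of somatic cells in the Bak1 difference was not tested. Bak1 shares 437 of its 2407 exon bases with Ggnbp1 on the opposite strand, and whether the counting used strand is not stated in the sources used here. Ggnbp1 was at 5.66, 7.10 and 5.91 CPM in HETStra8 and 5.72, 5.70 and 5.83 CPM in KOStra8 testes.

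Bax and Bok, the other effectors, had few counts and overlapping groups. Bax (ENSMUSG00000003873, chromosome 7 from 45461697 to 45466898), the effector that moves from the cytosol to mitochondria, had 112, 105 and 135 counts in HETStra8 and 90, 103 and 131 counts in KOStra8 testes. These are 3.56, 3.12 and 4.05 CPM against 2.57, 3.56 and 3.59 CPM, and KOStra8 mouse 1 alone lay below the HETStra8 range. The log2 fold change of Bax was −0.14 (SE 0.227, 95% interval −0.63 to 0.34, edgeR adjusted p = 0.834). Its transcripts are at 59.0% GC, and the correction for GC content and length put the log2 fold change at 0.0048. Bax shares 8.51% of its 50-base sequences with the annotated gene Gm45808, which had 0 counts in every library.

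Bok (ENSMUSG00000026278, chromosome 1 from 93685660 to 93695764) is the member whose protein is an ERAD client. Its RNA had 136, 163 and 110 counts in HETStra8 and 125, 84 and 118 counts in KOStra8 testes, which are 4.32, 4.84 and 3.30 CPM against 3.58, 2.90 and 3.23 CPM. KOStra8 mouse 1 was above HETStra8 mouse 3, so that the groups overlapped, and the group means were 4.15 ± 0.785 and 3.24 ± 0.338 CPM (mean ± SD, n = 3). The log2 fold change was −0.36 (SE 0.220, 95% interval −0.83 to 0.11, edgeR adjusted p = 0.526). It was −0.20 after correction for GC content, which is 61.8% for Bok, and length. Bok was at a log2 fold change of −0.49 when HETStra8 mouse 3 was left out (edgeR adjusted p = 0.249), then below an unadjusted p of 0.05. The genes whose log2 CPM followed that of Bok most closely over the 6 testes were Zfp27, Fkbp10 and Flna, with Pearson correlations of 0.994, 0.992 and 0.991. Such values describe 6 libraries only, and 284 genes reached a correlation of at least 0.9.

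Among the guardians, Bcl2l1 was the one whose groups did not overlap. Bcl2l1 (ENSMUSG00000007659, chromosome 2 from 152780668 to 152831728) had 4512, 4490 and 4108 counts in HETStra8 and 3845, 3374 and 4219 counts in KOStra8 testes. Scaled, these were 143, 133 and 123 CPM against 110.0, 116 and 115 CPM, or 133 ± 10.1 and 114 ± 3.48 CPM (mean ± SD, n = 3). All KOStra8 testes were below all HETStra8 testes, with HETStra8 mouse 3 nearest to them. The log2 fold change of Bcl2l1 was −0.23 (SE 0.0788, 95% interval −0.39 to −0.057), a fitted level of 76.1% to 96.1% of HETStra8, below an unadjusted p of 0.05 and above the adjusted one (edgeR adjusted p = 0.287). After correction for GC content and length it was −0.10 (95% interval −0.24 to 0.031), and both this correction and leaving out KOStra8 mouse 1 brought Bcl2l1 above an unadjusted p of 0.05. Bcl2l1 is the best counted member, with a counting error of 1.56% per library.

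Mcl1 and Bcl2l2 had overlapping groups and means that differed by less than the SD of the HETStra8 mice. Mcl1 (ENSMUSG00000038612, chromosome 3 from 95658788 to 95663176) was at 87.6, 80.1 and 76.7 CPM in HETStra8 and 77.7, 78.7 and 73.8 CPM in KOStra8 testes. The groups of Mcl1 overlapped, and the log2 fold change was −0.086 (SE 0.0819, 95% interval −0.26 to 0.089, edgeR adjusted p = 0.702), and −0.0083 with the correction for GC content and length. Bcl2l2 (ENSMUSG00000089682, chromosome 14 from 54883377 to 54888234), the guardian that spermatogenesis requires in mice, was at 24.1, 24.8 and 22.2 CPM against 22.5, 22.0 and 23.1 CPM. KOStra8 mice 1 and 3 lay inside the HETStra8 range and KOStra8 mouse 2 just below it, with a log2 fold change of −0.073 (SE 0.102, 95% interval −0.29 to 0.15, edgeR adjusted p = 0.808), and of 0.053 with the correction for GC content and length. Of the sequence of Bcl2l2, 12.1% is also held by the annotated gene Gm20521 on the same strand, which had 0 counts in every library.

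Bcl2 (ENSMUSG00000057329, chromosome 1 from 106538178 to 106714274) was counted 17, 15 and 41 times in HETStra8 and 50, 6 and 23 times in KOStra8 testes. KOStra8 mice held both the highest and the lowest value, and the coefficient of variation was 57.9% in HETStra8 and 82.2% in KOStra8 testes, above the 19.9% that counting alone gives. The log2 fold change of 0.046 had a 95% interval from −1.29 to 1.38, which holds a 2-fold difference in either direction. Its sign changed in 3 of the fits that left out a mouse, with values from −0.78 to 0.64.

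The BH3-only genes, which signal stress to the rest of the family, all had overlapping groups. Bcl2l11 (ENSMUSG00000027381, chromosome 2 from 128126038 to 128162547), which encodes BIM, was at 18.7, 15.2 and 16.1 CPM in HETStra8 and 12.8, 17.8 and 13.0 CPM in KOStra8 testes. KOStra8 mouse 2 lay within the HETStra8 range and the other KOStra8 mice below it, and the log2 fold change was −0.20 (SE 0.147, 95% interval −0.51 to 0.12, edgeR adjusted p = 0.612), and −0.18 with the correction. When KOStra8 mouse 2 was left out it was −0.36 and below an unadjusted p of 0.05 (edgeR adjusted p = 0.427), and across the 6 fits that each left out a mouse it ran from −0.36 to −0.11. Bbc3 (ENSMUSG00000002083, chromosome 7 from 16308393 to 16318205) encodes PUMA, a target of p53. It was at 2.13, 3.24 and 3.78 CPM against 2.26, 2.62 and 3.37 CPM, all KOStra8 testes falling inside the HETStra8 range, with a log2 fold change of −0.15 (SE 0.268, 95% interval −0.72 to 0.42, edgeR adjusted p = 0.859), and −0.046 with the correction. Bid (ENSMUSG00000004446, chromosome 6 from 120891930 to 120916853), which caspase-8 cleaves to carry death receptor signals to mitochondria, was at 3.18, 4.54 and 4.29 CPM against 3.35, 3.73 and 3.17 CPM. HETStra8 mouse 1 was as low as the KOStra8 testes for Bid, and the log2 fold change was −0.23 (SE 0.217, 95% interval −0.69 to 0.23, edgeR adjusted p = 0.697), and −0.16 with the correction. Of the 3550 exon bases of Bid, 628 are shared on the opposite strand with its neighbour Bcl2l13, which had at least 1228 counts in every library, so that part of the Bid counts is uncertain.

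**Figure D3:**
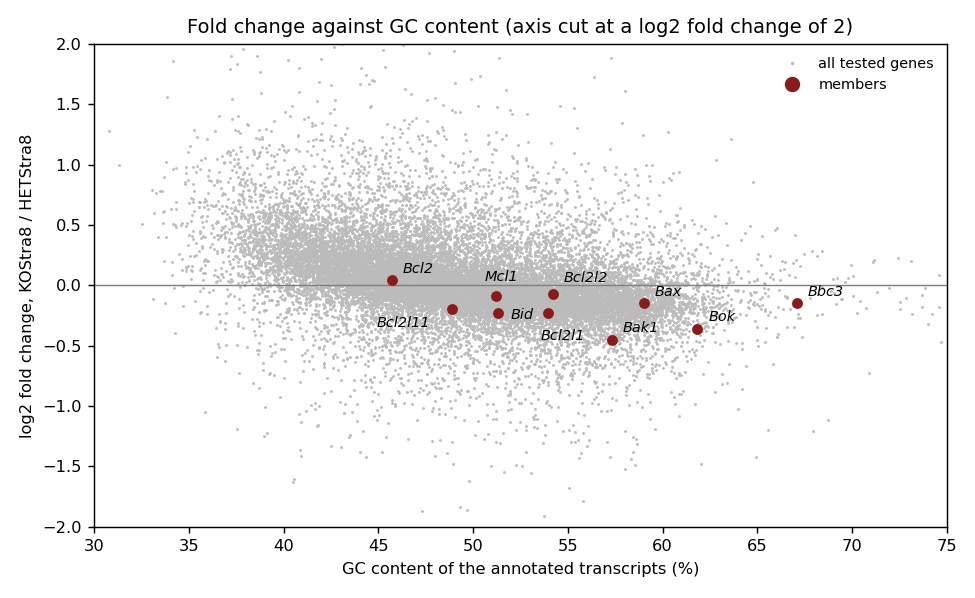
Log2 fold change of KOStra8 against HETStra8 testes (vertical axis, cut at 2 in either direction) against the GC content of the annotated transcripts in percent, for all tested genes (grey) and the 10 members (red). Grey points slope downwards with GC content (rho −0.47), and the members lie within the grey band, with Bak1 at the lowest fold change among them.

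The members' median GC content was 54.1% against 49.2% for all tested genes, and the correction moved the log2 fold change upwards for 9 of the 10. From Bcl2 at 45.7% to Bbc3 at 67.1%, the members differed by GC content among themselves as well. The spread between mice differed widely. In HETStra8 testes the coefficient of variation went from 5.78% (Bcl2l2) to 57.9% (Bcl2). In KOStra8 testes it went from 1.31% (Bak1) to 82.2% (Bcl2). The value of Bak1 in KOStra8 testes was below what counting alone gives for this gene, so it does not measure how far these mice differ. Depth set the precision as well, since 5 members had under 200 counts in every library and 2, Bcl2l1 and Mcl1, had over 2000.

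Levels were also summed by class, without a test and without the correction. The effectors summed to 13.2, 11.8 and 11.2 CPM per kilobase in HETStra8 and to 9.11, 9.37 and 9.44 in KOStra8 testes. The guardians summed to 62.4, 58.1 and 54.4 against 51.9, 53.4 and 52.0, and the BH3-only members to 4.23, 4.69 and 4.99 against 3.60, 4.51 and 4.10. That last sum leaves out BH3-only genes outside the members, such as Bad, whose mean was 12.4 in HETStra8 and 11.3 in KOStra8 testes on this scale. The groups did not overlap for effectors and guardians and overlapped for BH3-only genes. The ratio of effectors to guardians per testis was 0.206 ± 0.00467 in HETStra8 and 0.178 ± 0.00342 in KOStra8 (mean ± SD, n = 3), and the 3 values of each genotype did not overlap. These sums and ratios restate the members' own values, and of the effectors Bak1 alone had groups that did not overlap. The KOStra8 spread of Bak1 was below counting error, and the SDs of the ratio were not compared with counting error.

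**Figure D4:**
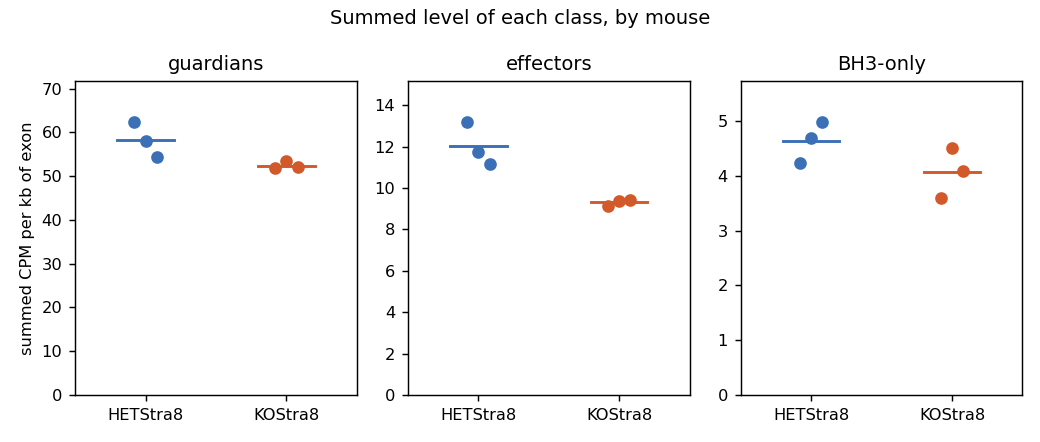
Summed level of guardians (Bcl2, Bcl2l1, Bcl2l2, Mcl1), effectors (Bax, Bak1, Bok) and BH3-only genes (Bcl2l11, Bbc3, Bid) in each mouse, in CPM per kilobase of exon on axes that start at 0, with a bar at the mean of 3 mice. KOStra8 points lie below all HETStra8 points for guardians and effectors and mix with them for BH3-only genes.

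Bak1 carried most of the effector sum. The ratio of Bak1 to Bcl2l1 was not among the planned ratios and pairs the 2 members whose own groups did not overlap. It was 0.275, 0.246 and 0.253 in HETStra8 and 0.231, 0.218 and 0.215 in KOStra8 testes, without overlap. The ratio of the BH3-only members to guardians, also not planned and without Bad, had means of 0.0801 in HETStra8 and 0.0776 in KOStra8 testes, with overlap. The ratio of Bax to Bcl2l1 was 0.0722, 0.0681 and 0.0956 in HETStra8 and 0.0681, 0.0888 and 0.0904 in KOStra8 testes, with overlap and with means of 0.0786 and 0.0824. The ratio of Bax to Bcl2, often quoted as a measure of readiness for apoptosis, ran from 19.1 to 40.7 in HETStra8 and from 10.5 to 99.7 in KOStra8 testes with overlap, while Bcl2 itself had between 6 and 50 counts per library.

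Of 15 other BCL2-family genes, 11 were tested and 0 passed the adjusted p in edgeR's test, with a median log2 fold change of −0.0024. At an unadjusted p below 0.05, 1 was lower and 0 were higher, against 5.12% and 7.13% of all tested genes. The lower gene was Bcl2l13, a family member of the mitochondrial outer membrane, at 57.9, 53.2 and 47.7 CPM in HETStra8 and 44.9, 42.4 and 46.6 CPM in KOStra8 testes (log2 fold change −0.25, and −0.26 with the correction, edgeR adjusted p = 0.327). Bcl2l13 stayed below an unadjusted p of 0.05 with the correction. Bcl2l14, named here after its values were seen, had more CPM than any of the 10 members, with 373, 407 and 432 CPM in HETStra8 and 375, 387 and 395 CPM in KOStra8 testes (log2 fold change −0.067, edgeR adjusted p = 0.739). Bcl2l10, a guardian known from oocytes and also named after its values were seen, had 0 counts in all 6 libraries, and the limit that a count of 0 allows (3 counts) was 0.0821 to 0.104 CPM.

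The machinery downstream of the mitochondrial pore was represented by 21 genes, all tested, of which 0 were called by edgeR, with a median log2 fold change of −0.033. At an unadjusted p below 0.05, 1 was higher and 0 were lower, against 7.13% and 5.12% of all tested genes. Apaf1, the scaffold of the apoptosome, had a log2 fold change of −0.074 with a 95% interval from −0.51 to 0.36, and of −0.14 with the correction for GC content and length. For the somatic and testis cytochromes c, Cycs and Cyct, the log2 fold changes were 0.075 and 0.038, and −0.15 and −0.16 with the correction, at 20.9 ± 1.24 and 44.8 ± 1.94 CPM in HETStra8 testes (mean ± SD, n = 3). Vdac2, a channel of the outer mitochondrial membrane to which BAK is bound, was at 467, 459 and 411 CPM against 407, 412 and 416 CPM, and its groups overlapped (log2 fold change −0.12 with and without the correction, edgeR adjusted p = 0.517). The gene with the small p was Xiap, an inhibitor of caspases, at 8.26, 7.16 and 9.41 CPM in HETStra8 and 12.4, 9.18 and 13.8 CPM in KOStra8 testes, with overlap (log2 fold change 0.52, edgeR adjusted p = 0.272). With 39.0% GC, Xiap had a log2 fold change of 0.14 after the correction, above an unadjusted p of 0.05. With the correction 0 genes of this list were higher and 1 was lower at that p, against 3.75% and 3.15% of all tested genes. The lower gene was Vdac3, another channel of the outer mitochondrial membrane and named here after its values were seen. Its transcripts are at 41.4% GC, and its log2 fold change was −0.044 as deposited and −0.27 with the correction.

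**Figure D5:**
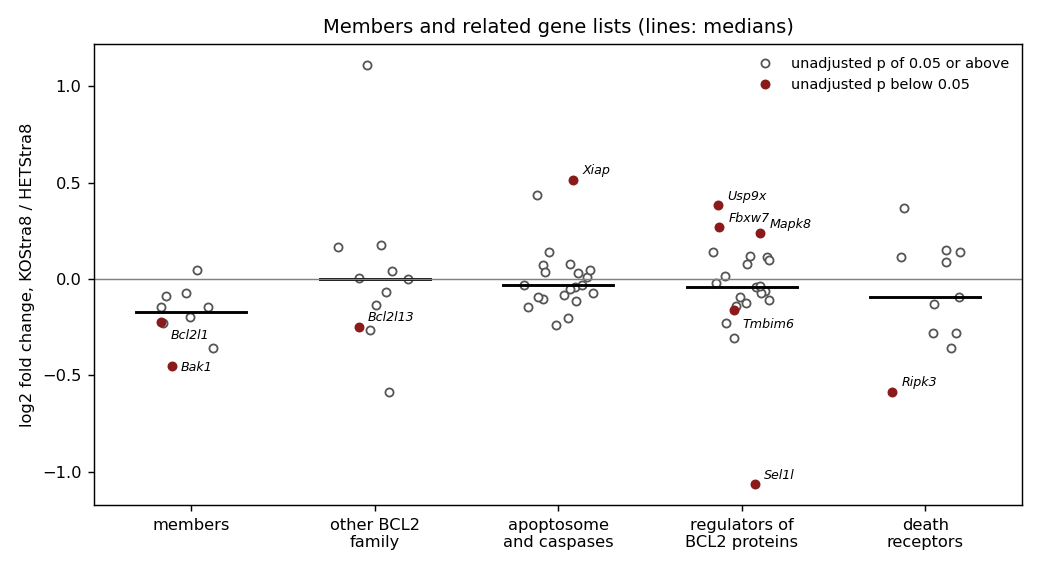
Log2 fold change of each tested gene in KOStra8 against HETStra8 testes, for the members and 4 related lists, with filled points at an unadjusted p below 0.05 and a line at each list's median. Sel1l is the lowest point of the regulators, and the medians lie between −0.17 for the members and −0.0024 for the other BCL2-family genes.

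Of 23 genes whose products act on BCL2 proteins, 22 were tested. Of these, 1 was called lower, Sel1l itself, and the median log2 fold change was −0.040. At an unadjusted p below 0.05 there were 3 higher and 2 lower, against 7.13% and 5.12% of all tested genes. Syvn1, which encodes HRD1, was at 56.3, 53.5 and 46.7 CPM in HETStra8 and 47.9, 53.6 and 48.2 CPM in KOStra8 testes, with a log2 fold change of −0.064 (95% interval −0.27 to 0.14), and of 0.084 with the correction. The groups of Syvn1 overlapped. Tmbim6, which encodes the ER protein Bax inhibitor-1, had a log2 fold change of −0.16 (edgeR adjusted p = 0.398), and of −0.062 with the correction, above an unadjusted p of 0.05. KOStra8 mouse 2 at 250 CPM lay above HETStra8 mouse 3 at 247 CPM.

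Trp53, the transcription factor p53 upstream of Bbc3 and Bax, was at 17.7, 17.1 and 16.9 CPM in HETStra8 and 14.4, 16.0 and 13.8 CPM in KOStra8 testes. Its groups did not overlap, as with KOStra8 lower for 8.43% of all tested genes (log2 fold change −0.23, edgeR adjusted p = 0.435, and −0.11 with the correction for GC content and length). Ddit3, which encodes the ER stress factor CHOP that can raise Bcl2l11, overlapped, with a log2 fold change of −0.023 (95% interval −0.29 to 0.24), and of 0.057 with the correction. The 3 genes with higher values were Usp9x, Fbxw7 and Mapk8. Usp9x, a deubiquitinase that stabilises MCL1 protein, was at 98.4, 102 and 108 CPM in HETStra8 and 136, 132 and 134 CPM in KOStra8 testes, with a log2 fold change of 0.38 (edgeR adjusted p = 0.0768). Its transcripts are at 40.4% GC, and the correction left a log2 fold change of 0.023, above an unadjusted p of 0.05. Fbxw7, which targets MCL1 for degradation, and Mapk8, the kinase JNK1, had log2 fold changes of 0.27 and 0.24 (edgeR adjusted p = 0.283 and 0.343), and of 0.20 and −0.10 with the correction. With it Fbxw7 stayed below an unadjusted p of 0.05 and Mapk8 did not.

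The death receptor pathway, which joins the mitochondrial pathway at Bid, was covered by 12 genes. Of these 11 were tested and 0 were called by edgeR, with a median log2 fold change of −0.091. At an unadjusted p below 0.05, 1 was lower and 0 were higher, against 5.12% and 7.13% of all tested genes. The lower gene was Ripk3, a kinase of necroptosis, at 4.10, 3.44 and 3.66 CPM in HETStra8 and 2.20, 3.38 and 1.92 CPM in KOStra8 testes. Its groups did not overlap, as with KOStra8 lower for 8.43% of all tested genes, but the nearest mice were at 3.44 and 3.38 CPM. The log2 fold change of Ripk3 was −0.58 (95% interval −1.13 to −0.042, edgeR adjusted p = 0.378). With the correction for GC content and length it was −0.47, above an unadjusted p of 0.05.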

How the data were processed

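Testis RNA of 3 KOStra8 and 3 HETStra8 mice was sequenced by the authors as directional, paired-end poly(A)+ libraries. The deposited tables hold raw counts of reads per Ensembl gene, without normalization, 1 table per mouse. The submitters' processing notes name FastQC, Trimmomatic, STAR 2.7.1a, Picard 2.20.4, StringTie 2.0.4, featureCounts 1.6.0, HTSeq, ChIPseeker and the builds mm10 and GRCm38, and do not say which tool counted the reads or with what strand setting.

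All 55536 identifiers matched GENCODE mouse M21 (GRCm38), from which symbols, positions, exon lengths, GC content and coding sequence were taken. Counts were fitted in R 4.3.3 with edgeR 4.0.16: filterByExpr (21465 genes kept), TMM, a robust quasi-likelihood model of genotype alone, and two-sided tests whose p-values were adjusted by Benjamini-Hochberg over all tested genes. Calls used the study's adjusted p of 0.01, with or without its fold of 2, and the common coefficient of biological variation was 0.16. TMM-scaled CPM are given on the linear scale without a prior count. The log2 CPM behind the correlations had 2 as prior count. Offsets for GC content and transcript length came from a loess curve per library (span 0.3, genes above a log2 CPM of 2). Ratios and per-length levels carry no test. The steps were tested on simulated data. No pair of libraries within a group agreed within sampling noise (chi-square per gene of 9.43 to 31.1).

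The alternatives were DESeq2's size factors, library totals, no filter, at least 10 counts in every sample, the offsets, the replicate number as a block, both together, DESeq2 1.42.0, limma-voom (limma 3.58.1), an adjusted p of 0.05, the longest transcript as length, and fits without 1 of the mice. The members, the 4 related lists and the tests were chosen with earlier results of these data known. Besides the members, the text names preset pathway genes, some of which are not reported here, up to 5 further genes of each list with the smallest unadjusted p below 0.05, and the 3 genes most like Bok. Any other gene was picked with its values in view. Intervals and limits for single libraries cover counting error only.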

Additional observations from a re-analysis of the deposited data

How the results depend on the processing

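No member passed an adjusted p of 0.01 or, with all mice in edgeR, of 0.05, and the lowest adjusted p of a member in any of the 15 alternative fits was 0.0363 (Bak1 without HETStra8 mouse 3), so that the count of members called stayed at 0 while the counts over all genes moved. DESeq2 gave no adjusted p for Bax, Bok, Bcl2, Bbc3 and Bid. Genes called higher numbered 3, against 121 with DESeq2, 337 without a filter, 31 with the replicate block and 1 to 421 with a mouse left out (421 without HETStra8 mouse 3). Genes called lower numbered 1, against 11 with DESeq2, 48 without a filter and 0 to 22 with a mouse left out. The deviations of same-numbered mice correlated at −0.0601, −0.0525 and 0.108. With 3 mice per group these values cannot settle whether the replicate numbers pair the mice. The replicate block changed no call of a member. Members lower at an unadjusted p below 0.05 numbered 2, against 1 with offsets for GC content and length, 1 with the block and offsets together, and 1 to 3 with a mouse left out (1 without KOStra8 mouse 1, 3 without HETStra8 mouse 3, adding Bok, and 3 without KOStra8 mouse 2, adding Bcl2l11).

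With the offsets the members' median was −0.084. A filter of at least 10 counts in every sample moved the death receptor median to 0.091. With a mouse left out the medians ran from −0.074 to −0.0055 for the other BCL2-family genes, from −0.059 to 0.020 for the apoptosome and caspases, and from −0.14 to 0.074 for the death receptors. Signs turned for 13 values of the members under the alternatives and stayed for 136. With offsets alone, and with block and offsets, the log2 fold change was 0.0048 and 0.0022 for Bax, −0.063 and −0.25 for Bcl2, 0.053 and 0.052 for Bcl2l2, 0.084 and 0.084 for Syvn1, −0.15 and −0.15 for Cycs, −0.16 and −0.15 for Cyct, 0.057 and 0.051 for Ddit3, and −0.10 and −0.10 for Mapk8. Bcl2 was at −0.14 with limma-voom and −0.15 with the block. Leaving out a mouse gave −0.23 to 0.0046 for Bax, −0.78 to 0.64 for Bcl2, −0.35 to 0.046 for Bbc3, −0.20 to 0.10 for Apaf1, −0.026 to 0.084 for Cyct and −0.17 to 0.083 for Ddit3. Sel1l kept a log2 fold change of −1.13 to −1.01, with edgeR adjusted p-values up to 0.0132 (without KOStra8 mouse 2), and Usp9x reached adjusted p-values down to 0.00107 in DESeq2.

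With the longest transcript as length, levels in CPM per kilobase in HETStra8 and KOStra8 were 3.25 and 2.94 for Bax, 2.83 and 2.20 for Bok, 51.9 and 44.4 for Bcl2l1, 6.21 and 5.91 for Bcl2l2, 3.31 and 2.89 for Bcl2l11, and 1.66 and 1.42 for Bid. Bak1 was then at 7.57 and 5.54, in KOStra8 testes below Bcl2l2. The ratios were then 0.0631 and 0.0661 for Bax to Bcl2l1 and 0.166 and 0.147 for effectors to guardians. The cause of the moves that rest on a single mouse was not tested. Low counts limit Bcl2 most, and 3 mice per group limit every permutation test to p = 0.1.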

Other observations

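Other BH3-only genes were counted in the same testes and are named here after their values were seen. Bad, whose protein binds BCL-XL and BCL-W when survival signals cease, was the most abundant of them in CPM, with 36.2, 28.8 and 30.2 in HETStra8 and 26.7, 33.8 and 26.0 in KOStra8 testes. The groups overlapped (log2 fold change −0.14, 95% interval −0.40 to 0.13, edgeR adjusted p = 0.684). Bik, an ER-anchored BH3-only protein that acts with BIM in removing male germ cells, was at 2.32, 4.48 and 1.71 CPM in HETStra8 and 2.26, 2.07 and 2.74 CPM in KOStra8 testes, with HETStra8 mouse 2 above the rest. Pmaip1, which encodes the p53 target NOXA, ran from 1.91 to 2.61 CPM in HETStra8 and from 2.14 to 2.74 CPM in KOStra8 testes, with a log2 fold change of 0.040 (95% interval −0.51 to 0.59).

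Bnip3l, which marks mitochondria for autophagy, was at 45.3, 47.7 and 42.0 CPM in HETStra8 and 53.2, 49.8 and 48.3 CPM in KOStra8 testes. Every KOStra8 testis was above every HETStra8 testis, as for 9.33% of all tested genes, and the log2 fold change was 0.16 (edgeR adjusted p = 0.469) and 0.030 with offsets for GC content and length. Hrk did not pass the filter on low counts, at 0.267 to 0.330 CPM in HETStra8 and 0.0821 to 0.173 CPM in KOStra8 testes, and was not tested.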
